A study of Mus musculus with 12 samples.

Results

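The 8 genes described here form the Lin28 axis and a group of oncofetal RNA-binding and chromatin genes: Lin28a, Lin28b, Trim71, Hmga1, Hmga2, Igf2bp1, Igf2bp2 and Igf2bp3. They were chosen by symbol, and all 8 were found among the 55487 genes of the whole-genome count matrix. Female embryonic stem (ES) cells of the mouse gave 12 polyA RNA-seq libraries. The cells are a C57BL6/CAST hybrid, in which reads can be assigned to parental genomes at strain-specific bases. The 4 groups, each of 3 libraries, were wild type at day 0, SIRT7-KO (labelled as knockout of the deacetylase gene Sirt7) at day 0, wild type at day 7 and SIRT7-KO at day 7. LIF (leukaemia inhibitory factor) sustains self-renewal of mouse ES cells. Day 0 cells had grown in it, and day 7 cells had been without it for 7 days. How many ES cell clones each genotype stands for is not given in the sources used here.

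LIN28A and LIN28B are RNA-binding proteins that block the maturation of let-7 microRNAs, which in turn repress messenger RNAs through short matches to their 5′ seed. Many let-7 targets are themselves genes of early development, and Lin28a, Lin28b, Trim71, Hmga2 and the Igf2bp genes are among the best known of them, so that let-7 and LIN28 form a double-negative loop. The members are high in embryos, fall in most adult tissues and return in many tumours, which is the sense of the word oncofetal.

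The mature let-7 sequences are shown first because several of the members are known let-7 targets. RefSeq (GRCm38.p6) gave 9 mature 5′ products of the let-7 family, and all of them had the same seed, bases 2 to 8, in capitals below. Of these, 4 are printed, chosen to show that the bases after the seed vary while the seed does not.
mmu-let-7a-5p: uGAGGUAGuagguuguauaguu
mmu-let-7d-5p: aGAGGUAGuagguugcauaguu
mmu-let-7g-5p: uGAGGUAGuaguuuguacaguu
mmu-miR-98-5p: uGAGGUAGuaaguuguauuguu
The second microRNA family known to act on Lin28a, miR-125, has a different seed.
mmu-miR-125b-5p: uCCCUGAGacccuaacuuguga

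The DNA letters complementary to the let-7 seed, CTACCTC, were searched on the sense strand of the longest annotated 3′UTR of each protein-coding gene (GENCODE M21, GRCm38). They were present in 9.021% of 21039 such 3′UTRs, and in those of all 8 members. Lin28b, Trim71, Hmga2 and Igf2bp1 held 4 matches each, Lin28a held 2, and Hmga1, Igf2bp2 and Igf2bp3 held 1 each. Not every Hmga1 transcript carried the match. It was present in Hmga1-201, Hmga1-203, Hmga1-204, Hmga1-211, Hmga1-213 and Hmga1-216, which has the longest 3′UTR, and absent from others such as Hmga1-210. In wild type Hmga1-210 held 16.6% ± 12.9 (SD) of the gene's transcript counts at day 0 and 28.9% ± 1.93 at day 7. Hmga1-216 held 10.9% ± 1.46 and 8.37% ± 2.71. Long 3′UTRs hold more matches by length alone, so each member was set beside genes whose 3′UTR length was within 20% of its own. Each such set, of 564 to 2899 genes, held the member itself and any other member of that length. The shares below therefore count members too, which weighs most in the small sets of Igf2bp1 (564 genes) and Trim71 (793 genes). At least 4 matches were found in 0.13% of 3′UTRs as long as that of Hmga2, in 0.24% of those as long as that of Lin28b, in 0.35% for Igf2bp1 and in 0.5% for Trim71. At least 2 matches were found in 2.1% of 3′UTRs as long as that of Lin28a. A single match was found at least once in 8.07% of 3′UTRs of the length of Hmga1, in 12.04% for Igf2bp2 and in 13.28% for Igf2bp3. The first match after the stop codon in each of 6 members is printed with the bases before it, in the sense of the messenger RNA, the match in capitals.
Lin28a, chr4:134005189-134005211, minus strand: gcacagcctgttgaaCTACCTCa
Lin28b, chr10:45381022-45381044, minus strand: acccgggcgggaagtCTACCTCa
Trim71, chr9:114512472-114512494, minus strand: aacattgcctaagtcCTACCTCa
Hmga2, chr10:120364224-120364246, minus strand: gccgacattcaatttCTACCTCa
Igf2bp1, chr11:95961778-95961800, minus strand: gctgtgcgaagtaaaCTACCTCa
Igf2bp2, chr16:22059473-22059495, minus strand: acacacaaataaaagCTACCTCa
In each of these 6, and in all 4 matches of Trim71, the base after the match is A, which faces the first base of the microRNA. The later matches of Lin28b and Hmga2, the last of Igf2bp1 and the one of Hmga1 are followed by T or C. The match to the miR-125 seed, CTCAGGG, was present in 13.109% of all 3′UTRs. Lin28a, Lin28b, Trim71 and Igf2bp3 held 1 match each. Among 3′UTRs of like length the share with a match was 24.59%, 32.02%, 37.33% and 19.92% for these genes. The match was not among the letters of the 3′UTRs of Hmga1, Hmga2, Igf2bp1 and Igf2bp2. For those genes the share at like length was 12.49%, 25.95%, 42.55% and 17.63%. A match is a description of letters, and no microRNA was measured in these libraries.

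Library totals ran from 25190483 to 69079368 counts. ES cell markers fell together in both genotypes, with all 8 of 8 lower at day 7. Levels are given as CPM, the count of a gene relative to its library's total after scaling with edgeR's TMM factors. The summed level of the ES cell markers was between 5323 and 5644 CPM over the 6 day 0 libraries and between 314 and 351 CPM at day 7, while mesoderm markers went from at most 9.67 CPM to at least 1798 CPM and endoderm markers from at most 6.31 CPM to at least 231 CPM. In bulk RNA, fewer cells of a type and less RNA per cell cannot be told apart. Sirt7 itself went against the knockout label: it stood at 12.7, 8.03 and 10.3 CPM in wild type and 19.2, 23.8 and 16.9 CPM in the libraries labelled knockout at day 0, a log2 difference of 0.95 (SE 0.21, edgeR adjusted p = 0.18), and at day 7 the difference was 0.94 (SE 0.21, edgeR adjusted p = 0.30). DESeq2 called both (adjusted p = 0.0057 and 0.0095). Which part of Sirt7 was altered is not given in the sources used here, so its RNA level does not settle the genotype, and "labelled knockout" is used throughout. A further treatment label (LIF or None) followed replicate and genotype and not day, and was not used. Nothing in the labels says that the libraries of a group came from separate cultures, so p-values measure the spread between libraries.

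Over the 7 days without LIF, 5 of the 8 genes rose and 2 fell in wild-type cells, and the same counts held in the labelled knockout cells. Hmga2, Lin28b, Igf2bp2, Igf2bp3 and Lin28a rose, Trim71 and Igf2bp1 fell, and Hmga1 was not called in either genotype. The test was edgeR's quasi-likelihood test over all genes with Benjamini-Hochberg adjustment, and a gene is called at an adjusted p of at most 0.05. Most genes changed over these days: 65.1% of the 19235 genes tested were called in wild type (32.9% higher and 32.1% lower) and 63.4% in the labelled knockout (31.1% higher and 32.3% lower). A count of 7 of 8 members called therefore says little on its own. The median log2 change of the members was 0.89 in wild type and 0.92 in the labelled knockout, against 0.01 and -0.02 over all genes tested. The sizes of the changes, which ranged from 21.2-fold higher to 0.761 of the starting level in wild type, are described gene by gene.

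**Figure D1:**
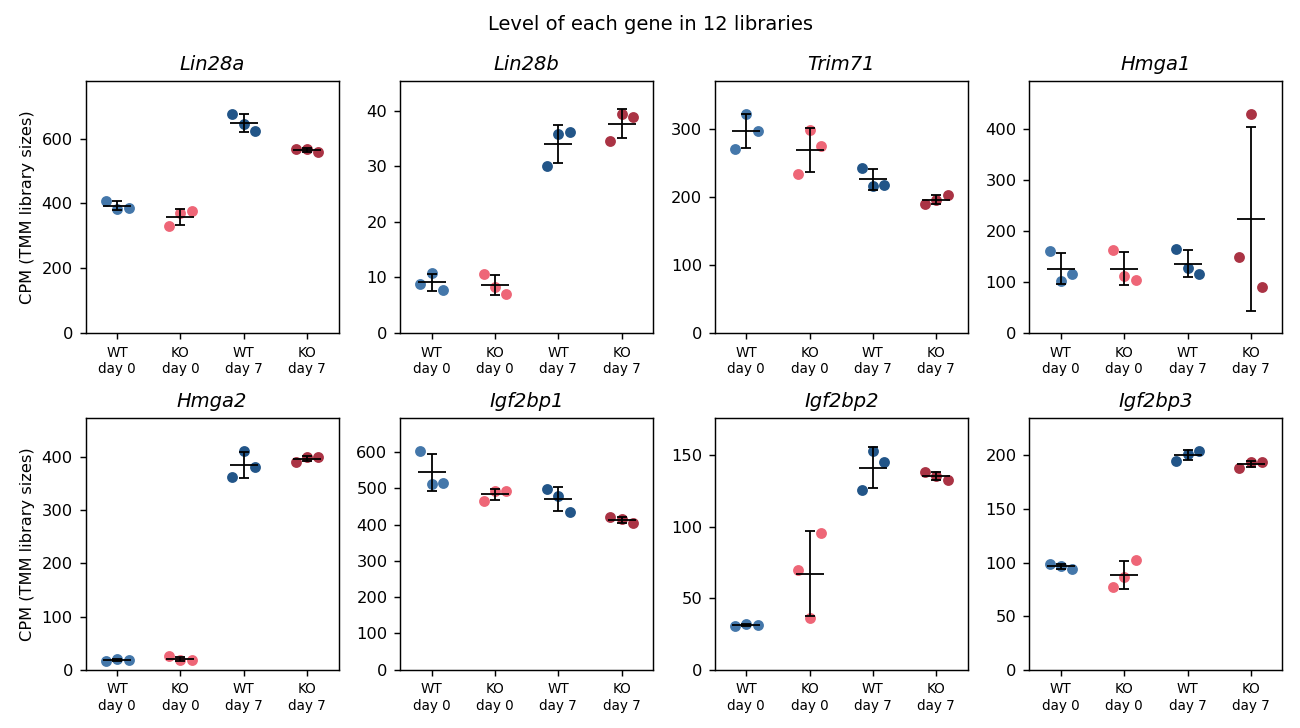
Level of each of the 8 genes in CPM (linear axes that start at 0) by group. Points are the 3 libraries of a group, horizontal bars the mean and error bars the SD. Hmga2 stood between 15.5 and 25.4 CPM at day 0 and between 363 and 412 CPM at day 7, and 1 labelled knockout library at day 7 held 429.5 CPM of Hmga1.

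Lin28a, the LIN28 paralogue of ES cells, rose although ES cell markers fell. It is encoded on the minus strand of chromosome 4 (ENSMUSG00000050966, chr4:134003330-134018841, GRCm38). Its level was 409, 384 and 384 CPM in wild type at day 0, 331, 371 and 376 CPM in the labelled knockout at day 0, 676, 645 and 623 CPM in wild type at day 7 and 567, 568 and 558 CPM in the labelled knockout at day 7. Every day 7 library was above every day 0 library. The increase was 0.72 on the log2 scale in wild type (SE 0.06, edgeR adjusted p = 1.4e-06), a fold of 1.65, and 0.65 in the labelled knockout (SE 0.06, edgeR adjusted p = 3.5e-06). The 3505-base transcript Lin28a-201, whose 3′UTR carries both let-7 seed matches, held at least 99.675% of the gene's transcript counts in the mean of every group.

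Lin28b, the paralogue best known from fetal liver, germ cells and tumours, started from a much lower level and rose further (ENSMUSG00000063804, chr10:45376620-45486395, minus strand). It stood at 8.75, 10.9 and 7.75 CPM in wild type and 10.6, 8.33 and 7.11 CPM in the labelled knockout at day 0. At day 7 it stood at 30.1, 35.8 and 36.2 CPM in wild type and 34.7, 39.4 and 38.9 CPM in the labelled knockout. The days did not overlap in either genotype. The log2 increase was 1.90 in wild type (SE 0.17, edgeR adjusted p = 2.4e-06) and 2.12 in the labelled knockout (SE 0.17, edgeR adjusted p = 1.1e-06), or 3.73-fold and 4.35-fold. Per length of transcript Lin28b stayed the lowest of the 8 at both days: 1.00 ± 0.17 RPKM (CPM divided by the summed length of the gene's annotated exons in kilobases, SD, n = 3) in wild type at day 0 and 3.75 ± 0.38 at day 7, against 98.1 ± 3.54 and 162 ± 6.66 RPKM for Lin28a.

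Trim71, a ubiquitin ligase and RNA repressor of the early embryo that is itself a classic let-7 target, fell in both genotypes (ENSMUSG00000079259, chr9:114507133-114564369, minus strand). Its level was 272, 323 and 297 CPM in wild type at day 0, 234, 299 and 275 CPM in the labelled knockout at day 0, 244, 216 and 218 CPM in wild type at day 7 and 191, 195 and 204 CPM in the labelled knockout at day 7. Within each genotype every day 7 library was below every day 0 library, while the highest wild-type library of day 7 stood above the lowest labelled knockout library of day 0. Trim71 fell by 0.39 on the log2 scale in wild type (SE 0.10, edgeR adjusted p = 0.0037) and fell by 0.45 in the labelled knockout (SE 0.10, edgeR adjusted p = 0.0016).

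Hmga2, an architectural chromatin protein with AT-hooks and one of the best studied let-7 targets, showed the largest change of the 8 (ENSMUSG00000056758, chr10:120361275-120476469, minus strand). It stood at 15.5, 20.03 and 18.9 CPM in wild type and 25.4, 17.6 and 17.7 CPM in the labelled knockout at day 0. At day 7 it reached 363, 412 and 381 CPM in wild type and 391, 399 and 400.5 CPM in the labelled knockout. The log2 increase was 4.41 (SE 0.16, edgeR adjusted p = 1.3e-09) in wild type and 4.29 (SE 0.16, edgeR adjusted p = 1.6e-09) in the labelled knockout, a fold of 21.2 and 19.6. The size of the Hmga2 change depends on the count table. The deposited allele table also counts reads of neither genome, and summing its 3 columns gave 82.9% to 99.3% of the whole-genome count at day 0 but 46.7% to 52.5% at day 7. With those sums the fold was 11.1 in wild type and 10.8 in the labelled knockout, and both changes were still called (edgeR adjusted p = 4.4e-09 and 5.1e-09). The source of this difference between tables was not tested. Both coding transcripts of Hmga2 that reached 1 CPM, Hmga2-201 and Hmga2-203, carry the 4 let-7 seed matches, and Hmga2-201 held 97.2% ± 2.19 of the gene's transcript counts in wild type at day 0 and 98.4% ± 2.34 at day 7 (SD, n = 3). In the labelled knockout Hmga2-201 held 98.9% ± 0.46 at day 0 and 95.1% ± 0.58 at day 7.

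Igf2bp1, Igf2bp2 and Igf2bp3 encode the IMP proteins, which bind messenger RNAs such as that of Igf2 and affect their stability, transport and translation. Over 7 days Igf2bp1 fell and the other two paralogues rose. Igf2bp1 (ENSMUSG00000013415, chr11:95957163-96005940, minus strand) was 604, 513 and 515 CPM in wild type at day 0, 465, 493 and 492 CPM in the labelled knockout at day 0, 498, 479 and 435 CPM in wild type at day 7 and 419.9, 416 and 404 CPM in the labelled knockout at day 7. Day 7 was below day 0 within each genotype, by little. Igf2bp1 fell by 0.21 on the log2 scale in wild type (SE 0.08, edgeR adjusted p = 0.030) and fell by 0.23 in the labelled knockout (SE 0.08, edgeR adjusted p = 0.021). These 2 calls are the weakest of the set: they were lost without a filter on low counts (edgeR adjusted p = 0.12 and 0.063), and leaving out 1 library took the adjusted p up to 0.14 in wild type and 0.073 in the labelled knockout, over a range that began at 0.027 and 0.018.

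Igf2bp3 (ENSMUSG00000029814, chr6:49085223-49214957, minus strand) rose where Igf2bp1 fell. It stood at 98.9, 96.6 and 94.0 CPM in wild type at day 0, 77.0, 86.2 and 102 CPM in the labelled knockout at day 0, 195, 201 and 204 CPM in wild type at day 7 and 188, 194 and 193 CPM in the labelled knockout at day 7. No day 7 library overlapped a day 0 library. The increase was 2.07-fold in wild type (log2 1.05, SE 0.09, edgeR adjusted p = 1.5e-06) and 2.17-fold in the labelled knockout (log2 1.12, SE 0.09, edgeR adjusted p = 9.5e-07).

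Igf2bp2 (ENSMUSG00000033581, chr16:22059009-22163299, minus strand) rose most of the 3 in wild type, and its day 0 level differed among the labelled knockout libraries. It stood at 30.4, 32.0 and 31.5 CPM in wild type at day 0, a narrow range, and at 69.9, 36.4 and 95.8 CPM in the labelled knockout. At day 7 it stood at 126, 153 and 145 CPM in wild type and 139, 136 and 133 CPM in the labelled knockout. The log2 increase was 2.18 in wild type (SE 0.26, edgeR adjusted p = 2.3e-05) and 1.01 in the labelled knockout (SE 0.25, edgeR adjusted p = 0.0045). The increases were 4.52-fold and 2.01-fold. The difference between them was a log2 value of -1.17 (SE 0.36), which was not called (edgeR adjusted p = 0.52). These sizes depend on the count table: on the sums of the allele table the increases were 4.93-fold and 3.11-fold, both called. The difference between them was then -0.66 (SE 0.26), also not called (edgeR adjusted p = 0.70).

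**Figure D2:**
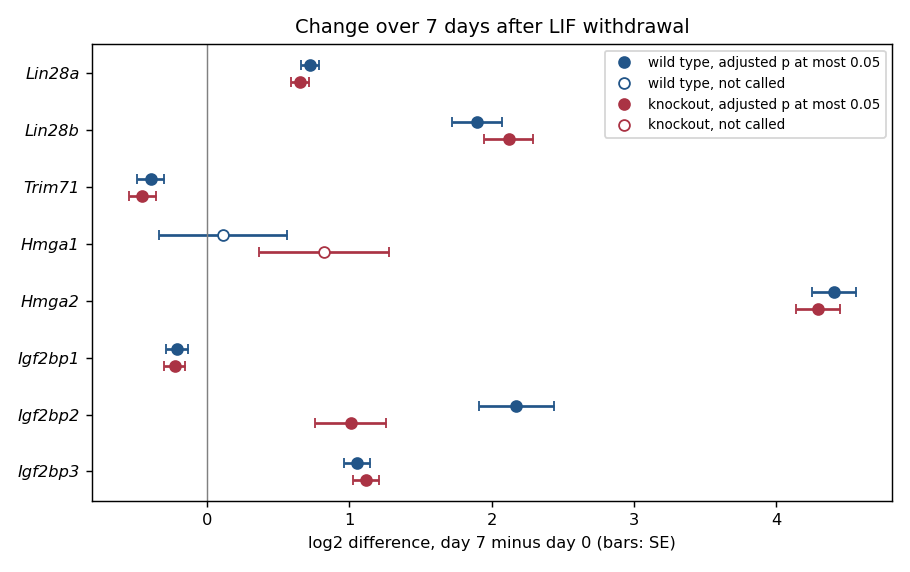
Log2 difference between day 7 and day 0 for each gene, in wild type and in the labelled knockout. Error bars are standard errors, filled points were called at an adjusted p of at most 0.05 and open points were not. Hmga2 lies farthest right at 4.41 and 4.29, and the 2 genotypes differ most for Igf2bp2 (2.18 and 1.01) and Hmga1 (0.11 and 0.82).

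Hmga1, the second AT-hook gene of the set, was measured with the largest error (ENSMUSG00000046711, chr17:27556497-27563674, plus strand). Its level was 161, 102 and 115 CPM in wild type at day 0, 163, 112 and 104 CPM in the labelled knockout at day 0, 165, 127 and 116 CPM in wild type at day 7 and 149.6, 429.5 and 91.0 CPM in the labelled knockout at day 7. All 4 groups overlapped. The log2 difference between days was 0.11 in wild type (SE 0.45, edgeR adjusted p = 0.84) and 0.82 in the labelled knockout (SE 0.45, edgeR adjusted p = 0.13). In the library that stood apart, labelled knockout replicate 2 at day 7, transcript Hmga1-204 held 332 CPM, or 77.4% of the gene's transcript counts, against at most 8.66 CPM in any other library. Without that library the log2 change in the labelled knockout was -0.07, and without replicate 3 it was 1.2001 and was called (edgeR adjusted p = 0.021).

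Hmga1 has a near-identical copy, Hmga1b, on chromosome 11 (ENSMUSG00000078249, chr11:120762794-120764419, plus strand), which is 1 exon long where Hmga1 transcripts have at least 5. Transcript Hmga1-216 and Hmga1b were identical at 99.81% of 1602 aligned columns, so reads can be assigned to either and the Hmga1 counts are uncertain. Hmga1b was counted at 1359, 1248 and 1285 CPM in wild type and 1054, 1296 and 1116 CPM in the labelled knockout at day 0, and at 1172, 1057 and 995 CPM and 929, 895 and 884 CPM at day 7. Over 7 days it fell by 0.27 in wild type (SE 0.08, edgeR adjusted p = 0.014) and by 0.36 in the labelled knockout (SE 0.08, edgeR adjusted p = 0.0030), with no overlap between days in either genotype, and it was not called between genotypes (edgeR adjusted p = 0.46 at day 0 and 0.48 at day 7). Per length it stood at 797 ± 34.8 RPKM in wild type at day 0, against 59.2 ± 14.4 RPKM for Hmga1 (SD, n = 3). Hmga1 took between 7.56% and 32.4% of the sum of both. When both were summed the change over 7 days was -0.23 in wild type (SE 0.11, edgeR adjusted p = 0.092) and -0.19 in the labelled knockout (SE 0.11, edgeR adjusted p = 0.17), the opposite sign to Hmga1 alone, and neither was called. In the allele table, Hmga1 in wild-type replicate 1 at day 0 was counted at 369% of its whole-genome value, 623 CPM.

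Ordered by RPKM in wild type at day 0, the genes ran Lin28a (98.1), Hmga1 (59.2 ± 14.4), Igf2bp1 (56.2 ± 5.35), Trim71 (31.8), Igf2bp3 (11.8), Igf2bp2 (4.23), Hmga2 (2.68) and Lin28b (1.00). Hmga1 and Igf2bp1 did not differ beyond their spread. At day 7 the order in wild type was Lin28a (162), Hmga1 (64.0 ± 12.2), Hmga2 (56.8 ± 3.67), Igf2bp1 (48.6 ± 3.35), Igf2bp3 (24.5 ± 0.58), Trim71 (24.2 ± 1.62), Igf2bp2 (19.1) and Lin28b (3.75), the SD over 3 libraries. On these counts and exon lengths Hmga2 moved from the seventh place to the third, and Igf2bp3 and Trim71 came within their spread of each other. The place of Hmga2 depends on the count table: on the sums of the allele table it stood at 2.69 RPKM at day 0, above Igf2bp2 (2.26), and at 29.8 ± 1.64 RPKM at day 7, below Igf2bp1 (50.8 ± 3.67). The places also depend on the length used, that of all annotated exons of a gene. For Igf2bp3 it was 8159 bases, where Igf2bp3-201 has 4345 and held 97.7% of transcript counts in wild type at day 7. For Trim71 both lengths were 9332 bases. Places by the length of the main transcript were not computed, and the Hmga1 level shares the doubt about its copy.

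Between genotypes edgeR called none of the 8 genes at either day. At day 0 the count was 0 of 8, where 0.13% of all genes tested were called. An unadjusted p under 0.05 was found for 2 members and for 2298 of all 19235 genes tested. At day 7 the count called was 0 of 8 beside 0.026% of all genes. There 2 members and 1573 of all genes had an unadjusted p under 0.05. The term for a different change over 7 days between genotypes gave 0 of 8 beside 0.026%. For that term 1 member and 1319 of all genes had an unadjusted p under 0.05. DESeq2 called 1 member at day 0, Igf2bp2 (log2 1.09, DESeq2 adjusted p = 0.0060), beside 0.958% of 34040 genes. DESeq2 called none of the 8 at day 7 (0.382% of those genes) or in the interaction (0.388%). The 34040 are all genes to which DESeq2 gave a p-value, without edgeR's filter on low counts. Its shares are therefore not on the same base as those of edgeR.

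The differences that were not called were small for most members. Lin28a differed by -0.13 at day 0 (SE 0.06, edgeR adjusted p = 0.45) and by -0.20 at day 7 (SE 0.06, edgeR adjusted p = 0.46), and all 3 labelled knockout libraries were below all 3 wild-type libraries at both days. Igf2bp1 differed by -0.17 at day 0 (SE 0.08, edgeR adjusted p = 0.41) and by -0.19 at day 7 (SE 0.08, edgeR adjusted p = 0.57), again with no overlap at either day. Trim71 differed by -0.14 and -0.20 (SE 0.10 each), Igf2bp3 by -0.13 and -0.06 (SE 0.09 each), Lin28b by -0.08 and 0.15 (SE 0.17 each) and Hmga2 by 0.15 and 0.04 (SE 0.14 each), none of them called. Hmga1 differed by 0.004 at day 0 (SE 0.45) and by 0.71 at day 7 (SE 0.45, edgeR adjusted p = 0.74), also not called. Its SE was the largest of the members, so its difference is not known to be small. Trim71 and Igf2bp3 overlapped at day 0 and had no overlap at day 7, with the labelled knockout lower. Lin28b, Hmga1 and Hmga2 overlapped at both days. The share of all genes without overlap between genotypes was not computed, so whether these separations are unusual is not known. With 3 libraries a group, an exact permutation test of a single gene could not go below p = 0.10.

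**Figure D3:**
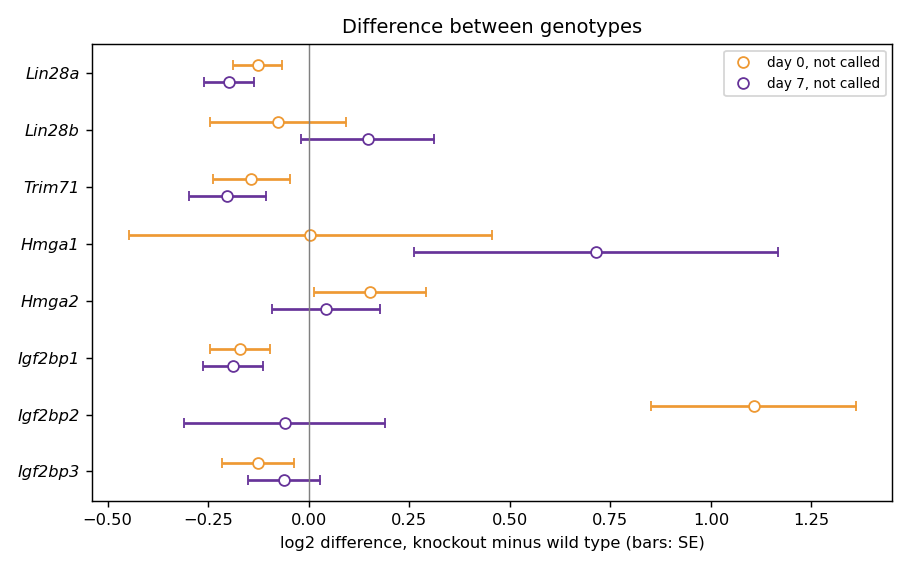
Log2 difference between labelled knockout and wild type for each gene at day 0 and at day 7. Error bars are standard errors, and no point was called at an edgeR adjusted p of at most 0.05. Igf2bp2 at day 0 stands apart at 1.11, and the other differences lie between -0.20 and 0.71.

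Igf2bp2 at day 0 was the largest difference between genotypes in the set. Wild type averaged 31.3 ± 0.83 CPM and the labelled knockout 67.3 ± 29.8 CPM (SD, n = 3), a log2 difference of 1.11 (SE 0.25, edgeR adjusted p = 0.19) with no overlap between groups. The 3 labelled knockout libraries disagreed: replicate 2 was 36.4 CPM, near wild type, and without it the difference was 1.40 and was called (edgeR adjusted p = 0.0020), as was the interaction (log2 -1.47, edgeR adjusted p = 0.017). Over all 13 alternatives tried at day 0 the log2 difference ran from 0.57 to 1.40 and the adjusted p from 0.0020 to 0.62.

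The excess of Igf2bp2 sat in different transcripts in the 2 high libraries. In labelled knockout replicate 1 at day 0 the protein-coding transcript Igf2bp2-202 held 44.2 CPM, against 6.31 to 10.3 CPM in wild type at day 0. In replicate 3 it was listed at 0, and the retained-intron transcript Igf2bp2-207 held 94.1 CPM, or 98.3% of the gene's transcript counts, against 16.8 to 21.9 CPM in wild type. The allele table gave another level for that library: the sum of its 3 columns was 35.1 CPM in replicate 1, 19.9 in replicate 2 and 19.8 in replicate 3, beside 16.3 to 17.0 CPM in wild type. Replicate 3 kept 19.7% of its whole-genome Igf2bp2 count in that table, where every other library kept 48.0% to 62.9%. On those sums the difference was 0.57 (SE 0.19, edgeR adjusted p = 0.29).

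**Figure D4:**
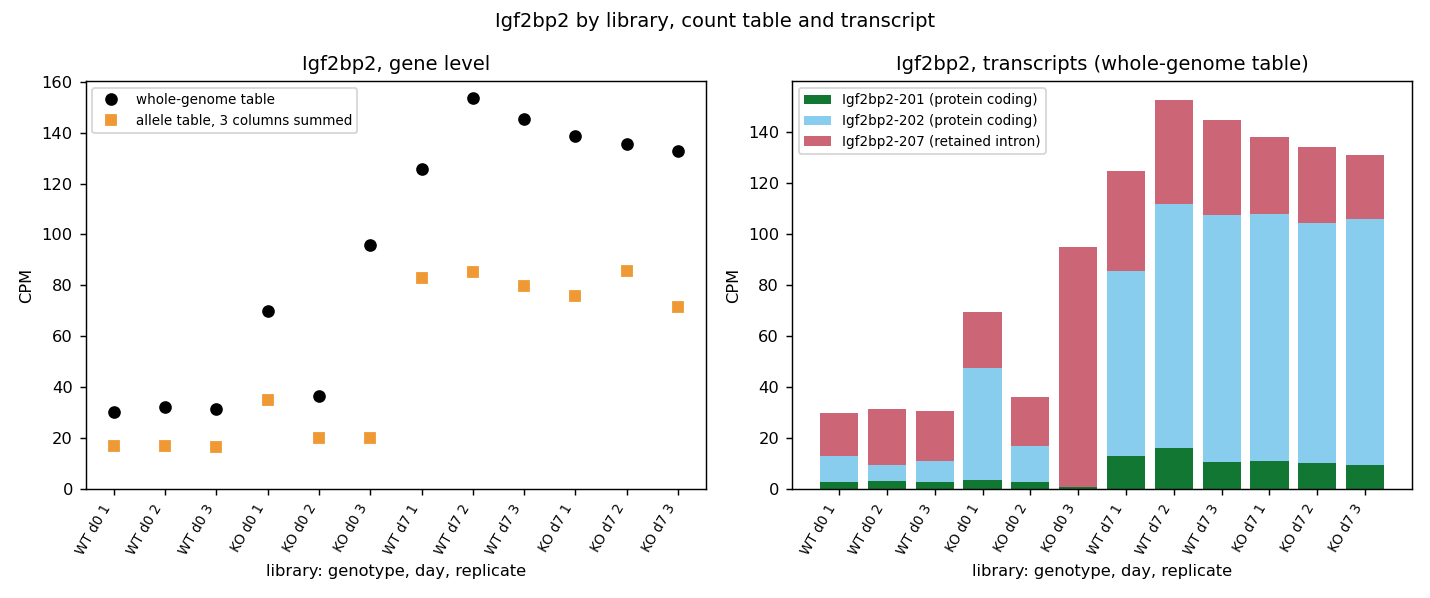
Igf2bp2 in each of the 12 libraries. The left panel gives the gene level in CPM in the whole-genome table (circles) and in the sum of the 3 columns of the allele table (squares), and the right panel stacks the CPM of the 3 transcripts that reached a mean of 1 CPM. Labelled knockout replicate 3 at day 0 is high in the whole-genome table only (95.8 against 19.8 CPM), and there Igf2bp2-207 makes up its bar.

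Transcript use of Igf2bp2 also differed between days in wild type. In wild type, Igf2bp2-202 held 26.6% ± 7.12 of the gene's transcript counts at day 0 and 62.2% ± 4.44 at day 7, while the retained-intron Igf2bp2-207 went from 62.3% ± 6.57 to 27.8% ± 3.01 (SD, n = 3). In level, Igf2bp2-202 rose from 8.28 ± 1.998 to 88.2 ± 13.7 CPM and Igf2bp2-207 from 19.5 ± 2.56 to 39.0 ± 1.60 CPM. In the labelled knockout the day 0 libraries disagreed: Igf2bp2-202 held 63.3%, 38.9% and 0% of the gene's transcript counts. At day 7 it held 69.7%, 69.6% and 72.5% there. All these shares and levels are the authors' estimates of how reads divide among overlapping transcripts and were not tested. Igf2bp2-201 and Igf2bp2-202 each carry the let-7 seed match in their 3′UTR. For Lin28a, Lin28b, Trim71, Hmga2, Igf2bp1 and Igf2bp3 1 transcript held over 94.0% of the counts in the mean of each group.

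Allele-resolved counts split the set by locus. The allele table assigns reads to genome 1 or genome 2, and which strain each is is not given in the sources used here. Trim71 and Igf2bp1 were near balance, with a genome 2 share of resolved reads between 46.2% and 51.7% and between 47.6% and 51.3% over the 12 libraries. Lin28a leaned to genome 2 in every library, between 65.0% and 68.2% on 4021 to 19784 resolved reads. Lin28b and Igf2bp3 had no genome 2 read among 6122 and 16976 resolved reads in all libraries together, which allows a share of up to 0.049% and 0.0177%, for counting error only. Igf2bp2 had 8 genome 2 reads of 8327 and Hmga2 had 29 of 4350. Of the Hmga2 counts in the allele table, 10.6% to 56.3% were assigned to a genome at day 0 and 6.56% to 8.11% at day 7. Hmga1 ranged from 2.5% to 61.4% on 33 to 305 reads, and its copy Hmga1b had 412 genome 2 reads of 13768.

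For 6 of the members the share was near the median of the surrounding genes. Among genes within 5 Mb that had at least 20 resolved reads in every library, the median genome 2 share was 0.227% around Lin28b (24 genes), 0.005% around Hmga2 (23 genes), 0% around Igf2bp2 (61 genes) and 0% around Igf2bp3 (32 genes). It was 50.14% around Trim71 (46 genes) and 50.12% around Igf2bp1 (97 genes). The surroundings of Lin28a were mixed: of 118 genes, with a median of 12.73%, 48 were under 5% and 36 between 20% and 80%, the band in which Lin28a lies. Among resolved reads Hmga1b stood far from its surroundings, at a total of 2.99% where the median of 100 genes was 52.02%. Only 2.33% to 3.88% of its counts in the allele table were assigned to a genome, against 40.1% to 45.0% for Trim71. Whether reads of its near-identical copy Hmga1 entered this share was not tested. Over all 9344 genes with enough reads the median was 15.4%, with quartiles of 0.018% and 55.1%, so a share near 0 is common in these libraries. The reason for the shares near 0 was not tested.

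**Figure D5:**
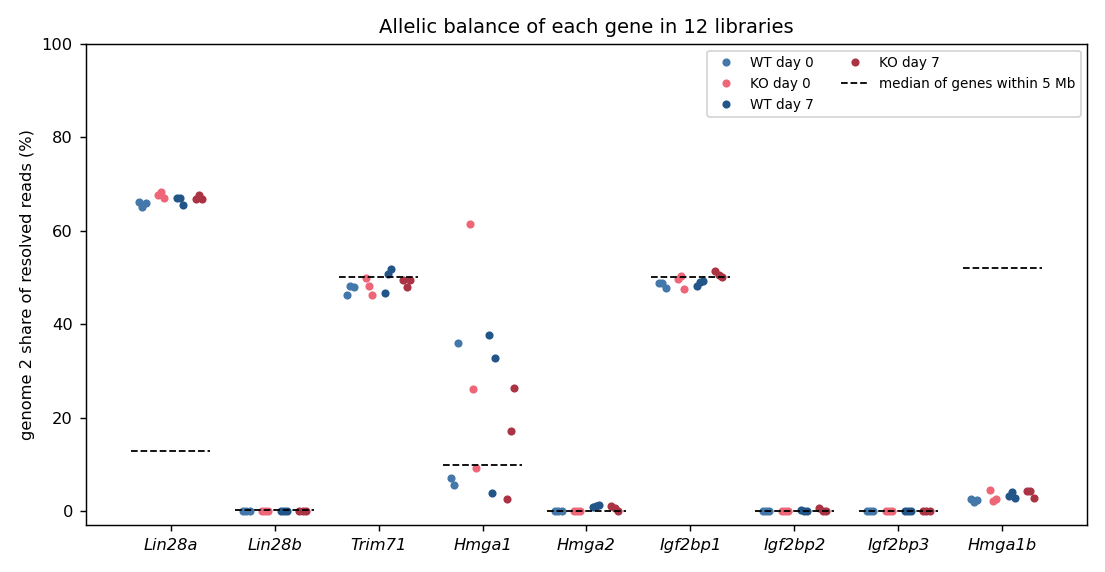
Genome 2 share of allele-resolved reads, in percent, for each gene and for the copy Hmga1b. Points are libraries, coloured by group, and dashed lines mark the median of all genes within 5 Mb. Lin28b, Hmga2, Igf2bp2 and Igf2bp3 lie at or near 0 with their surroundings, Trim71 and Igf2bp1 near the 50% of theirs, and Lin28a near 66.8% where its surroundings have a median of 12.73%.

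The allelic balance of the members was not called as changed in any comparison. The count was 0 of the members tested for labelled knockout against wild type at day 0 (0% of all 9344 genes called) and at day 7 (0.0321%), and 0 for day 7 against day 0 in wild type (3.67%) and in the labelled knockout (2.99%). Genes with no genome 2 read in either group were not tested. For Lin28a the log2 ratio of genome 2 to genome 1 changed by 0.05 in wild type (SE 0.13) and by -0.04 in the labelled knockout (SE 0.13).

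Among genes that make and clear let-7, 18 were tested: 10 rose and 2 fell in wild type, and 9 rose and 2 fell in the labelled knockout, with a median log2 change of 0.39 and 0.29. That is 66.7% and 61.1% of the list called, near the 65.1% and 63.4% of all genes. Tut4 and Tut7, the uridylyl transferases that LIN28A recruits to mark let-7 precursors for decay, rose by 2.32 (SE 0.14) and 1.68 (SE 0.13) in wild type (edgeR adjusted p = 7e-08 and 6e-07). Prkra, a partner of DICER1, rose by 2.45 (SE 0.11, edgeR adjusted p = 6.5e-09). Trim25, a cofactor of LIN28A in let-7 uridylation, fell by 2.998 (SE 0.17, edgeR adjusted p = 3.9e-08). Between genotypes, 2298 of all 19235 genes tested had an unadjusted edgeR p under 0.05 at day 0 and 1573 at day 7. Of the 18, 5 did at day 0 and 0 at day 7, and edgeR called none of the 18. DESeq2 called 2 of them at day 0, both higher in the labelled knockout: Dicer1, the nuclease that cuts let-7 precursors (log2 0.46, DESeq2 adjusted p = 0.0099), and Tut7 (log2 0.53, DESeq2 adjusted p = 0.018).

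The let-7 genes themselves were out of reach of these libraries, which were selected for polyA. The 12 let-7 and Mir98 hairpin genes held between 0 and 10 counts each over all 12 libraries, so the level of let-7 is not known here. Of 17 hairpin and host genes 3 could be tested, and 2 of them fell: Huwe1, which hosts a let-7 and Mir98 cluster, fell by 0.44 (SE 0.09, edgeR adjusted p = 0.0017) and Wdr82, which hosts Mirlet7g, fell by 0.23 (SE 0.09, edgeR adjusted p = 0.048) in wild type. Both also fell in the labelled knockout, by 0.69 and 0.31. Both are protein-coding genes with roles of their own.

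Of 21 other known targets of let-7, 12 rose, 2 fell and 7 were not called in each genotype. The share called, 66.7%, was near that of all genes, of which 32.9% rose and 32.1% fell in wild type and 31.1% rose and 32.3% fell in the labelled knockout. The list had a median log2 change of 1.10 in wild type and 0.66 in the labelled knockout beside 0.01 and -0.02 over all genes. In wild type the rise was 4.08 for Irs2 (SE 0.14), an adaptor of insulin signalling, 3.34 for Igf1r (SE 0.15), the receptor of IGF1, 4.48 for Ccnd2 (SE 0.21), a G1 cyclin, and 4.91 for Arid3a (SE 0.28), with edgeR adjusted p-values from 8.4e-10 to 4.8e-08. The 2 that fell were Hras (-0.24) and Ccnd1 (-0.20). No let-7 effect was measured.

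Targets of TRIM71 moved both ways while Trim71 fell. Of 9, 6 rose and 3 fell in wild type, and 6 rose and 2 fell in the labelled knockout, beside 65.1% and 63.4% of all genes called in either direction. Cdkn1a, which encodes the cell cycle inhibitor p21 and is repressed by TRIM71, rose by 1.90 in wild type (SE 0.19, edgeR adjusted p = 4.9e-06) and by 1.319 in the labelled knockout (SE 0.19, edgeR adjusted p = 8.2e-05). Plxnb2 rose by 1.62 (SE 0.08) and E2f7 by 2.50 (SE 0.24), and Inhbb fell by 6.66 (SE 0.40), from 43.8, 30.3 and 31.3 CPM to 0.35, 0.18 and 0.62 CPM in wild type.

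Of 5 genes whose RNAs the IMP proteins bind, 3 rose and 1 fell in both genotypes, beside the same 65.1% and 63.4% of all genes called. Igf2, the growth factor the family is named after, went from 0.20, 0.07 and 0.80 CPM to 1379, 1353 and 1237 CPM in wild type, and from 0.38, 0.26 and 0.10 CPM to 715, 444 and 727 CPM in the labelled knockout. Its 3 labelled knockout libraries at day 7 were all below the wild type, a log2 difference of -1.07 (SE 0.32) that was not called (edgeR adjusted p = 0.47). H19, the noncoding RNA next to Igf2, rose by 6.02 in wild type (SE 0.48, edgeR adjusted p = 7.4e-07), and Cd44 reached 121, 125 and 117 CPM at day 7 from at most 0.38 CPM. Pabpc1, which encodes a poly(A)-binding protein, fell by 0.27 (SE 0.07, edgeR adjusted p = 0.0038).

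Other RNA-binding genes of ES and germ cells moved in both directions. Of 16, 6 rose and 7 fell in wild type, and 3 rose and 6 fell in the labelled knockout, or 81.2% and 56.2% called beside 65.1% and 63.4% of all genes. Dppa5a fell by 6.65 (SE 0.13) and L1td1, a LIN28A-associated RNA-binding protein gene, fell by 3.78 (SE 0.09) in wild type (edgeR adjusted p = 3.6e-11 and 6.5e-11). Dazl, a germ cell gene, had between 4.12 and 5.99 CPM in wild type at day 0 and no count in any library at day 7. Of 7 other high mobility group genes, 5 rose and 1 fell in both genotypes. Hmgb3 rose by 1.497 (SE 0.15), Hmgn5 by 1.40 (SE 0.12) and Hmgn1 by 0.64 (SE 0.07) in wild type, and Hmgb2 fell by 0.22 (SE 0.06).

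Markers of other cell types moved with these changes. Of 7 fibroblast markers tested, 6 rose and 1 fell in both genotypes, and their sum went from between 21.9 and 31.1 CPM at day 0 to between 1051 and 1510 CPM at day 7. Col3a1 and Dcn had no count in any of the 6 day 0 libraries. Mesoderm markers were called higher in 5 of 6 and endoderm markers in 5 of 5, while 4 of 6 neural markers fell and 1 rose. Hand1, a mesoderm factor, went from 2.92, 2.14 and 2.36 CPM to 2066, 1941 and 1828 CPM in wild type. The part of each cell type in the levels of the 8 genes was not tested. Among all listed genes edgeR called only Esrrb, an ES cell transcription factor, between genotypes: it was higher in the labelled knockout at day 0 by 2.40 (SE 0.22, edgeR adjusted p = 0.0015), at 205, 315 and 173 CPM against 54.5, 38.5 and 38.5 CPM. Its fall over 7 days also differed between genotypes, by -2.92 (SE 0.32, edgeR adjusted p = 0.015). DESeq2 called 9 listed genes at day 0, Esrrb, Dicer1, Tut7, Irs2, Mbnl2 and Egr1 as higher and Mbnl1, Ccnd2 and Dab2 as lower in the labelled knockout. At day 7 it called 4, Col1a2, Dppa5a, Hand1 and Ccnd2, all lower, and in the interaction 4, Esrrb, Mbnl1, Dppa5a and Col1a2.

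The genes whose pattern was most like that of each member were found by Pearson correlation of log2 CPM over the 12 libraries, among 10210 genes. The 2 nearest were Cdh11 (0.9995) and Rbms1 for Hmga2, Khdrbs1 (0.995) and Lats2 for Lin28b, Tpm1 (0.996) and Slc7a11 for Igf2bp3, Fdps (0.994) and Csnk1g2 for Lin28a, Ndufv3 (0.991) and Atp5j2 for Trim71, Ryr2 (0.983) and H2-T22 for Igf2bp2 and Cactin (0.961) and Gps1 for Igf2bp1. For Hmga1 the nearest were Ppp1ca (0.709) and Cyfip2. The 12 libraries share 2 days, and no correlation was computed within a day. Above 0.95, 1993 genes correlated with Hmga2, 1748 with Lin28b, 1353 with Igf2bp3, 860 with Lin28a, 161 with Trim71, 36 with Igf2bp2, 5 with Igf2bp1 and 0 with Hmga1. Between members, Hmga2 and Lin28b were most alike (0.99), and Trim71 ran opposite to Igf2bp2 (-0.86).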

How the data were processed

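The authors deposited expected counts per gene and per transcript for 12 libraries, and a second gene table with expected counts of genome 1, genome 2 and neither genome. The submitters' processing notes name StringTie 1.3.3 and HISAT2 2.1.0, with SAMtools 0.1.19, Trimmomatic 0.36, FastQC 0.11.3 and DESeq2 1.32.0, and the build mm10/GRCm38. No settings, annotation release or strand use are given in the sources used here. StringTie divides reads among overlapping transcripts by a model, so transcript counts carry its error, and reads shared by Hmga1 and Hmga1b cannot be assigned with certainty.

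Gene counts, all whole numbers, were tested with edgeR 4.0.16 in R 4.3.3 (filterByExpr, TMM, 1 coefficient per group, quasi-likelihood F test, all 12 libraries, 19235 genes, Benjamini-Hochberg adjustment). The SE is the absolute log2 difference divided by the square root of F. Allelic balance was tested in edgeR on genome 1 and genome 2 counts with 1 coefficient for each library and 1 for the allelic ratio of each group. Every library needed 20 or more resolved reads of a gene, which left 9344 genes. Both fits were run on simulated data with the same spread setting for every gene. That run does not show how the fits fare for genes with a larger spread. DESeq2 1.42.0, other scaling, no filter, replicate blocks, left-out libraries and only the groups compared were alternatives; the sum of Hmga1 and Hmga1b and the sums of the allele table were added after seeing the data. CPM used TMM library sizes, and RPKM the length of all annotated exons. IDs matched GENCODE M21 for 55141 of 55487 genes.

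The members and gene lists were chosen with earlier results of these data known. Named genes are the 8 members, Sirt7, up to 4 genes per list with the smallest adjusted p in wild type over 7 days, any listed gene that edgeR called between genotypes or in the interaction, and the 2 genes most correlated with each member. Hras, Ccnd1, Hmgb2, Col3a1, Dcn, Hmga1b and the listed genes that DESeq2 alone called between genotypes or in the interaction were named after their values were seen. Same-numbered libraries of different groups did not deviate together, so replicate numbers were not treated as pairs. Replicates of a group differed by more than sampling noise.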

Additional observations from a re-analysis of the deposited data

How the results depend on the processing

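The 7 calls per genotype over 7 days kept their direction in all 196 values of the 7 called members under the alternatives, and 187 kept their call; the 9 losses were all of Igf2bp1, without a filter on low counts or with 1 library left out. The number of members called ran from 6 to 7 in either genotype when 1 library was left out. Between genotypes at day 0, DESeq2 called 1 member, and leaving out 1 library gave 0 to 1, the 1 being Igf2bp2 without labelled knockout replicate 2; the interaction likewise gave 0 to 1. Igf2bp1 without a filter on low counts was at -0.178 in wild type and -0.214 in the labelled knockout.

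The replicate numbers did not pair the libraries: deviations of same-numbered libraries correlated between -0.0243 and 0.0613 over 12 pairs. With the replicate block the count of members called stayed at 7 of 8 over 7 days in each genotype and at 0 between genotypes, and Hmga1 at day 0 became -0.0166. Over all genes the replicate block gave 12144 calls in wild type and 11775 in the labelled knockout over 7 days, 6 in place of 25 at day 0, 2 in place of 5 at day 7 and 0 in place of 5 in the interaction.

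Sign changes were among differences that were not called. Hmga1 at day 0 became -0.0088 with DESeq2, -0.0087 with RLE size factors, -0.0018 with only the groups compared, -0.1513 when summed with Hmga1b and -1.0892 on the allele table. Summed with Hmga1b, it became -0.1044 at day 7, -0.2334 over time in wild type and -0.1865 in the labelled knockout, and on the allele table it became -0.9991 over time in wild type, while Hmga2 at day 7 became -0.0099. Apart from the sums, whose construction changes the counts, the cause was not tested. With 1 library left out, differences between genotypes at day 0 ran from -0.2546 to 0.0695 for Lin28b, -0.228 to 0.2165 for Hmga1 and -0.052 to 0.2426 for Hmga2, and at day 7 from -0.18 to 1.0853 for Hmga1 and -0.139 to 0.001 for Igf2bp2. Over time Hmga1 ran from -0.0475 to 0.3285 in wild type and from -0.0656 to 1.2001 in the labelled knockout. The interaction ran from -0.1237 to 0.0193 for Trim71, -0.1835 to 1.0818 for Hmga1, -0.2014 to 0.117 for Hmga2 and -0.1009 to 0.0239 for Igf2bp1. The log2 ratio of genome 2 to genome 1 between genotypes ran from -0.0109 to 0.0914 at day 0 and -0.1335 to 0.0157 at day 7 for Trim71, from -1.8388 to 0.0919 at day 7 for Hmga1 and from -2.2689 to 4.2021 at day 7 for Igf2bp2. Over time it ran from -0.072 to 1.9171 for Hmga1 and -1e-04 to 0.0367 for Igf2bp1 in wild type, and from -0.0043 to 0.098 for Trim71 in the labelled knockout. Depth limits Hmga1 and Hmga2 alleles, with as few as 33 and 72 resolved reads in a library.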
